A study of Mus musculus with 3 samples.

Results

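Cells with transcripts of Nrg1, Irx1 and Tbx1 were picked out of a single-cell RNA-seq series of mouse embryonic mesoderm. A cell was taken when it held at least 1 unique molecular identifier (UMI, one counted transcript molecule) of each of the 3 genes and met 4 limits on other lineages. It had no UMI of Msc or Tlx1, which mark head muscle progenitors, fewer than 3 UMIs of the epithelial gene Epcam, and fewer than 2 of the neural gene Sox2. The cardiomyocyte genes Myl7, Tnnt2, Ttn and Myl4 together had to lie under 50 UMIs per 10000. The gate so defined held 423 of 14777 cells, or 2.86%, and the cells are called the Nrg1/Irx1/Tbx1 cells below. The cells were chosen by the counts of these genes, so their levels are described here and not tested.

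The embryos carried Mesp1-Cre, the Ai9 reporter and a floxed allele of Wls on a C57BL/6 background. Controls were Mesp1-Cre; Ai9; Wls fl/+, with 1 floxed and 1 intact allele, and mutants were Mesp1-Cre; Ai9; Wls fl/fl. Both genotypes thus carried the recombinase and the reporter, and no group without Cre was measured. Mesp1-Cre recombines in the early mesoderm of the gastrulating embryo, so Wls was removed from many mesodermal derivatives together and not from the Nrg1/Irx1/Tbx1 cells alone. Embryos at E8.0, E8.5 and E9.5 (days after conception) were dissociated, labelled with MULTI-seq lipid barcodes, pooled, sorted for the reporter and captured on the 10x Chromium in 3 sequencing runs. A further control sample of 28 cells was labelled E7.5. The replicate here is the barcode sample, all cells of 1 run that share a barcode, stage and genotype, and it is named by its barcode (Bar22). The labels do not say whether a barcode held 1 embryo or several, so p-values measure the spread between barcode samples, which may be technical.

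The pharyngeal mesoderm is the core tissue of the pharyngeal arches and, with the second heart field, adds cells to both poles of the heart tube and to the head muscles. Tbx1 is a T-box transcription factor needed for growth of the pharyngeal apparatus and the outflow tract, where the genes of several fibroblast growth factors depend on it. Irx1 belongs to the Iroquois homeobox factors, which lie in gene clusters and pattern many embryonic tissues. Nrg1 encodes neuregulin, a ligand of the ErbB receptors that the endocardium is known to send to the myocardium. Wls encodes the membrane protein that carries lipid-modified Wnt ligands to the cell surface, so a cell without it cannot send Wnt signals but can still receive them.

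In GRCm38, with the GENCODE M21 annotation, Nrg1 lies on the minus strand at chr8:31814551-32884029, Irx1 at chr13:71957921-71963723 and Tbx1 at chr16:18580979-18590671, both also on the minus strand. Irx2 is on the chromosome of Irx1, at chr13:72628820-72634198, while Irx3 (chr8:91798525-91802067) and Irx5 (chr8:92357625-92376286) lie together in the other Iroquois cluster. Wls is at chr3:159839672-159938664 on the plus strand.

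The 22 barcode samples held 12 control and 10 mutant samples, and 18 of them held at least 1 Nrg1/Irx1/Tbx1 cell. Of the 423 cells, 144 were from E8.0, 83 from E8.5 and 196 from E9.5. A control sample of 28 cells labelled E7.5 held none, which allows a share of up to 10.7%. Controls gave 294 of the cells and mutants 129. Run 1 gave 300, run 2 gave 100 and run 3 gave 23. At least 20 of the cells were found in 8 samples (5 control, 3 mutant), whose summed UMIs ranged from 385566 to 1976298, and at least 10 in 14 samples (8 control, 6 mutant). The median depth was 22669 UMIs per cell, against 21699 in the other cells. Bar9, the E9.5 control of run 3, stood apart, with a median of 8836.5 UMIs in its 18 cells. Its cells also held more globin transcripts, a median of 0.608% of UMIs against 0.111% to 0.212% in the 13 other samples of at least 10 cells. Of the cell barcodes, 23 occurred in more than 1 run, 1 of them in an Nrg1/Irx1/Tbx1 cell. Scrublet called 79 of all cells doublets (0.535%) and 4 of the Nrg1/Irx1/Tbx1 cells.

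Most of the cells sat close to the lower limit of the gate. Nrg1 was counted with a median of 2 UMIs per cell, and 169 cells held exactly 1. Irx1 had a median of 3 UMIs, with 107 cells at exactly 1, and Tbx1 a median of 4, with 55 cells at 1. Only 13 cells had 1 UMI of all 3 genes, while 185 had at least 2 of each. Just outside the gate lay 777 cells that lacked Nrg1 alone, 145 that lacked Irx1 alone and 86 that lacked Tbx1 alone. Nrg1, the least counted of the 3, was thus the gene that most often decided membership. Free RNA can give such single UMIs. Among the 1926 blood cells (over 10% globin UMIs, median depth 27254.5 UMIs), which should lack the 3 genes, 2.08% had a UMI of Nrg1, 2.23% of Irx1 and 3.22% of Tbx1, against 11.7%, 20.5% and 21.6% of all cells. All 3 genes together were found in 1 blood cell.

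Of the cells with all 3 genes, 620 in number, the limits on other lineages removed 197. Msc or Tlx1 removed 189 of these, and Epcam, Sox2 and the cardiomyocyte genes removed 5 each, with some cells removed on more than 1 count. Tbx1-positive cells under the same limits that lacked Nrg1 or Irx1 numbered 2012, and the Nrg1/Irx1/Tbx1 cells were 17.4% of all Tbx1-positive cells under these limits. These other Tbx1-positive cells served as the nearest comparison.

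Markers were then described for the label of pharyngeal mesoderm. Irx2 and Prdm1 came with the label as markers of these cells, which was chosen with earlier results of these data known. Their excess was thus fixed in advance and is no independent check of the label. Irx2 had a UMI in 57.2% of the cells (95% exact binomial interval 52.3% to 62.0%), against 9.5% of the other cells and 1.51% of blood cells. Prdm1, a transcriptional repressor of the pharyngeal arches and germ cells, had a UMI in 44.2% (39.4% to 49.1%), against 7.96% of the other cells. Isl1, a LIM-homeobox factor of the second heart field, was found in 60.5% and Ebf1, a helix-loop-helix factor of mesenchymal and paraxial mesoderm, in 69.7%. Meox1, a homeobox factor of somites, was found in 65.5% (60.7% to 70.0%) against 27.5% of the other cells and 4.52% of blood cells. Of the 9 somite and sclerotome genes listed, 1 was at least 2-fold higher than in the other cells and 2 were lower, and their summed level ranged from 214 to 505 CPM against 190 to 301 CPM. The cells are named here by the 3 genes of the gate. The defining neural crest genes Sox10 and Foxd3 were at 0 of 10007623 UMIs, and the endodermal factor Foxa2 was at 3. These intervals, like all others below, cover counting error only. Of the 9 neural crest genes listed 2 reached 20 CPM in the cells or in the others, and their summed level ranged from 231 to 430 CPM in the cells against 267 to 472 CPM in the others, most of it from Twist1, which mesoderm also expresses.

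The cells were not uniform in these markers. Isl1 and Ebf1 were found together in 163 cells (38.5%), Isl1 alone in 93 (22.0%), Ebf1 alone in 132 (31.2%) and neither in 35 (8.27%). At E8.0 the joint share was 37.5%, at E8.5 45.8% and at E9.5 36.2%. Among blood cells, 2.13% had a UMI of Isl1 and 8.67% of Ebf1, a background that these shares include.

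The level of a gene was next set against the other cells of the same sample, in the 8 samples with at least 20 Nrg1/Irx1/Tbx1 cells. Levels are in CPM, the UMIs of a gene per 1000000 UMIs of the summed cells, and log2 ratios had 5 CPM added to both sides. Of 6641 genes at 20 CPM or more on either side, 59 (0.888%) were at least 2-fold higher in the Nrg1/Irx1/Tbx1 cells and 153 (2.3%) at least 2-fold lower, with a median log2 ratio over all of these genes of 0.05. Against the other Tbx1-positive cells, 30 genes (0.452%) were at least 2-fold higher and 47 (0.708%) lower. Since the counts of the same cells chose the cells, these values are descriptions.

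The genes of the gate stood at 113 ± 26.4 CPM for Nrg1 (SD, n = 8), 135 ± 22.3 for Irx1 and 192 ± 29.6 for Tbx1, against 9.54, 18.9 and 25.8 CPM in the other cells. All of these are set by the rule. Among the Iroquois genes, which the rule did not use apart from Irx1, Irx5 stood at 134 ± 14.4 CPM against 34.7 CPM in the other cells, and Irx3 at 179 ± 22.6 against 58.0. Irx2 stood at 46.4 ± 21.5 CPM against 7.80. Irx4, a factor of ventricular muscle, had 3 UMIs in all Nrg1/Irx1/Tbx1 cells together, and Irx6 had 0. Irx2, Irx3 and Irx5 were each at least 2-fold higher than in the other cells and higher in 8 of 8 samples, and Irx4 was lower in 8 of 8. Against the other Tbx1-positive cells the family stood less far apart. The median log2 ratio of its 6 genes, Irx1 included, was 0.82 there and 1.68 against all other cells.

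Neuregulin's receptors were counted as well. Erbb2, the shared partner of the receptor pairs, stood at 9.76 ± 4.27 CPM against 11.8 CPM in the other cells. Erbb3, which binds neuregulin, had 4 UMIs over all Nrg1/Irx1/Tbx1 cells, and Erbb4, the other receptor that binds it, had 1. Ereg and Areg, ligands of the epidermal growth factor receptor, were at 0. The cells were thus counted with the ligand and with few or no transcripts of its binding receptors. Low levels of both receptors would not be detectable at this depth.

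Outside the gate genes, the largest mean fold over the 8 samples (5 CPM added to both sides of each) was that of Six2, a homeobox factor of head mesenchyme and kidney progenitors, at 62.5 ± 17.9 CPM against 7.91 CPM, a fold of 5.19. Aplnr, the receptor of apelin and Elabela on early mesoderm and vessels, stood at 102 ± 51.4 CPM against 21.7 CPM, a fold of 4.21, and Prdm1 at 42.9 ± 22.1 CPM against 6.04, a fold of 4.06. Six2, Aplnr and Prdm1 were each higher than in the other cells in 8 of 8 samples. Of the 12 anterior second heart field genes listed, 6 were at least 2-fold higher and 1 lower, with a median log2 ratio of 1.09. Among them Fgf8, a growth factor of the outflow tract region, stood at 98.1 ± 54.8 CPM against 19.9, Fgf10 at 36.7 ± 17.9 against 8.68 and Isl1 at 103 ± 42.8 against 30.9. Eya1, the partner of Six2 and its relatives, stood at 56.5 ± 32.7 CPM against 15.2.

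Some genes of the FGF response were higher. Spry1, an inhibitor that FGF signals induce, stood at 50.1 ± 16.5 CPM against 15.3, and Spry2 at 72.7 ± 24.2 against 33.8. Of the 20 FGF pathway genes listed, 5 were at least 2-fold higher and 1 lower, 10 were higher in 8 of 8 samples and 5 were lower in 8 of 8. Over the 6641 genes, 639 were higher and 374 lower in 8 of 8. Of the 20 genes of the Tbx1 network, 7 were at least 2-fold higher and none was 2-fold lower, in cells that were chosen by Tbx1. The median log2 ratio of that list was 0.34, and 0.07 against the other Tbx1-positive cells. The 10 genes listed for the posterior second heart field, the source of the inflow pole, held 4 that were at least 2-fold lower and 1 at least 2-fold higher, with a median log2 ratio of -0.69. Tbx5, a T-box factor of the inflow region, stood at 4.68 ± 4.33 CPM against 21.6 and Wnt2 at 7.20 ± 7.42 against 63.2. All 14 cardiomyocyte genes and all 8 blood genes were at least 2-fold lower, as part of the rule for 4 of the former.

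The nearest cells differed in fewer genes. For them the median log2 ratio was 0.92 for the anterior second heart field list, 0.14 for the FGF list and -0.09 for the cardiomyocyte list. Against all other cells these medians were 1.09, 0.43 and -2.42. The cardiomyocyte limit also chose the nearest cells. Against the other Tbx1-positive cells the log2 ratio was 2.02 for Fgf8, 1.91 for Prdm1, 1.89 for Isl1, 1.88 for Fgf10 and 1.62 for Irx2. Wnt2 was lower, at -2.16, whereas Ebf1, at 0.18, was close to even. Isl1 and the FGF genes thus lay farther from the other Tbx1-positive cells than Ebf1 did, as values without a test.

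**Figure D1:**
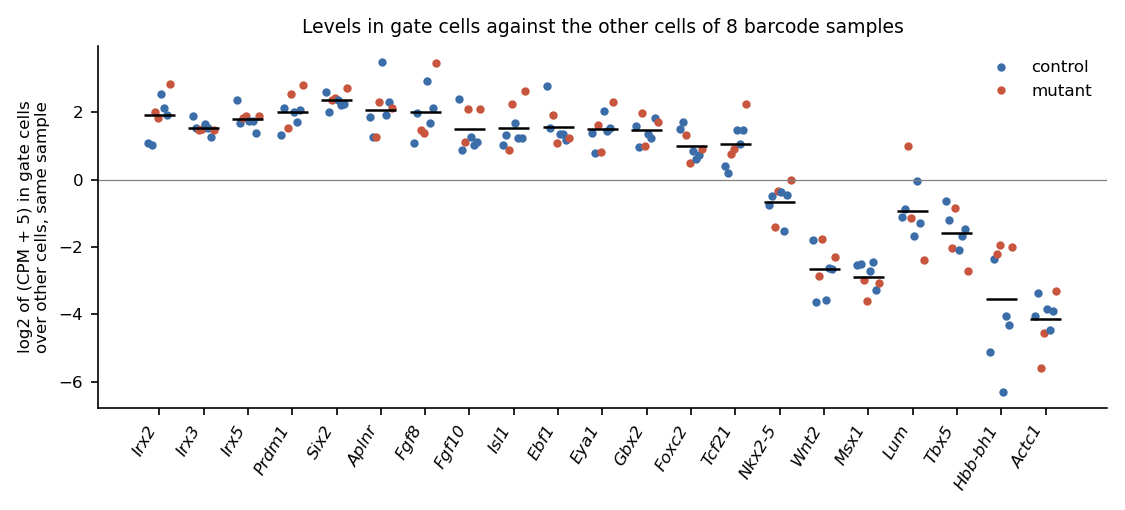
Log2 ratio (5 CPM added to both sides) of genes in Nrg1/Irx1/Tbx1 cells over the other cells of the same barcode sample. Points are the 8 samples with at least 20 such cells, and Six2, Aplnr and Prdm1 lie above 0 in all 8 of them.

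The share of Nrg1/Irx1/Tbx1 cells was then compared between genotypes. At E8.0 the controls held 2.72% (Bar24), 4.56% (Bar26) and 6.16% (Bar29), and the mutants 4.59% (Bar25), 4.71% (Bar27) and 3.57% (Bar28). The mutant samples lay inside the range of the controls. The means were 4.48% ± 1.72 (SD, n = 3) and 4.29% ± 0.63 (SD, n = 3), and an exact permutation test of 3 against 3 cannot go below 0.1.

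At E8.5 a mutant sample, Bar1, held 2 of 487 cells, or 0.411% (95% exact interval 0.0498% to 1.48%). The large control sample of that stage, Bar3, held 81 of 2508, or 3.23% (2.57% to 4.00%). A control of 34 cells, Bar2, held none, which allows up to 8.82%. The interval of the mutant sample lies under that of Bar3. With 1 mutant and 2 control samples the two-sided exact permutation p of the share was 1, and the smallest this design allows is 0.333.

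At E9.5 the controls held 3.07% (Bar22), 2.91% (Bar23), 2.47% (Bar4), 1.31% (Bar9) and 0% (Bar7, of 164 cells, which allows up to 1.83%), with a mean of 1.95% ± 1.29 (SD, n = 5). A sixth control, Bar6, had 6 cells in all, none of them in the gate, and was left out because shares were compared in samples of at least 20 cells. The E7.5 control had no mutant of its stage and did not enter the test either. The 6 mutant samples ranged from 0.714% to 3.51% with a median of 2.06% and a mean of 2.10% ± 1.06. The ranges overlapped across most of their width. Over all stages and runs, with genotype labels permuted within stage and run, the mutant share was lower by 0.108 percentage points, shown here as a difference of -0.108 (10 against 10 samples, two-sided exact permutation p = 0.866, smallest possible p 0.000139). No difference in the share was thus detectable beyond the spread between samples. Fewer such cells and fewer transcripts of the gate genes per cell cannot be told apart in this share.

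Depth differed between samples, so each cell was also thinned to 5000 UMIs, leaving out 447 shallower cells (365 control, 82 mutant). By thinned counts 80 cells met the rule, and the difference was 0.0286 percentage points (exact permutation p = 0.882). The limits on Msc, Tlx1, Epcam and Sox2 are counts too, so thinning can let in cells that they removed at full depth. The thinned shares thus need not describe the same cells. At E8.0 the thinned shares were 0.638% ± 0.212 in controls and 1.14% ± 0.342 in mutants, with each mutant above each control. The exact permutation p was 0.1, the smallest that 3 against 3 allows. These thinned shares rest on 10 control and 18 mutant cells, and the unthinned shares of the same samples overlapped.

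**Figure D2:**
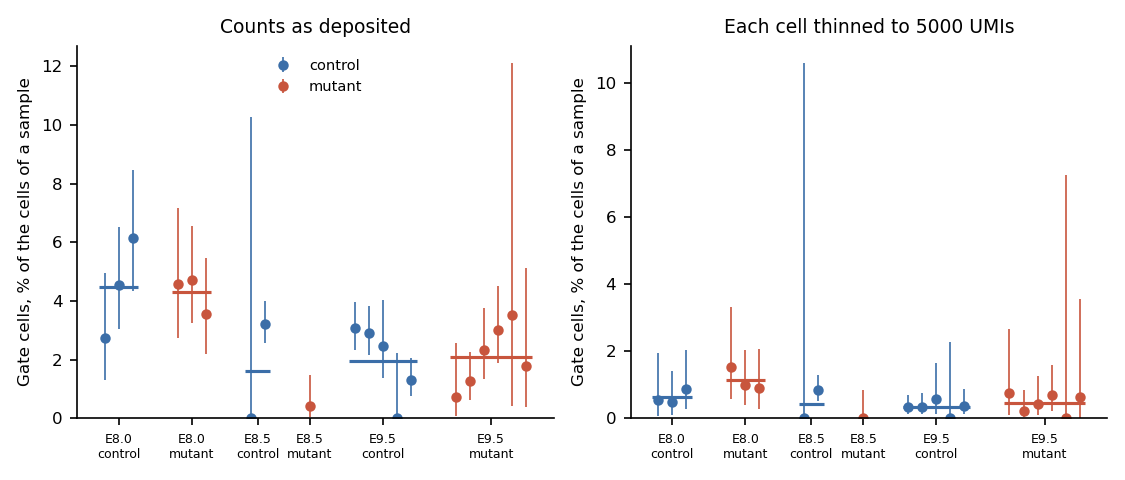
Share of Nrg1/Irx1/Tbx1 cells (percent of the cells of a barcode sample) by stage and genotype; each point is 1 barcode sample, bars are exact 95% intervals, horizontal lines are means, and the right panel holds thinned counts. By deposited counts control and mutant samples overlap at E8.0 and at E9.5, and at E8.5 the mutant sample Bar1 lies at 0.411% and the control Bar3 at 3.23%.

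The genes of the gate themselves were compared between genotypes in the sum of all cells of each of the 22 samples, with stage and run as terms. Of 20831 genes tested, 10.2% were called by edgeR's quasi-likelihood test at a Benjamini-Hochberg adjusted p of 0.05. The log2 fold change of mutant over control was 0.03 for Nrg1 (adjusted p = 0.963), 0.14 for Irx1 (0.572) and -0.26 for Tbx1 (0.290) in that edgeR test. Of the 11 genes in the rule edgeR called 0 with TMM factors, with 6 at an unadjusted p under 0.05, and with RLE size factors it called 1, Ttn. Those 6 were Tlx1, Epcam and the 4 cardiomyocyte genes, which were used to leave cells out, and the log2 fold changes of the latter ran from 0.69 (Myl4) to 0.85 (Ttn).

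Wls itself was counted first as a check of the labels. In the controls the Nrg1/Irx1/Tbx1 cells held 49 (Bar26), 96 (Bar29), 27 (Bar24), 90 (Bar3), 50 (Bar22), 52 (Bar23), 14 (Bar4) and 7 (Bar9) UMIs of Wls. In the mutants they held 1 (Bar25), 1 (Bar27), 0 (Bar28), 0 (Bar19), 0 (Bar20) and 0 (Bar21). Every control sample lay above every mutant sample. The UMIs come from the 3′ end of the transcript and need not read the floxed part, so they measure the transcript level and not the deletion.

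Summed over all samples, Wls stood at 54.4 CPM in the controls (385 UMIs, exact Poisson interval 49.1 to 60.1) and at 0.683 CPM in the mutants (2 UMIs, 0.0827 to 2.47). The ratio was 79.7, with a counting interval of 21.9 to 661. A Wls UMI was found in 188 of 294 control cells (63.9%) and in 2 of 129 mutant cells (1.55%). At E9.5 the mutants had 0 of 1029036 UMIs against 42.0 CPM in the controls. The exact counting interval of that ratio begins at 11.5, and a limit of 3 counts over the group gives 14.4-fold.

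Wls was also lower in mutants outside the gate. In the other Tbx1-positive cells Wls stood at 47.9 CPM in controls and 3.83 CPM in mutants (2.81 to 5.11), a ratio of 12.5 (9.31 to 17.1). By stage the counting intervals overlapped, with ratios at E8.0 of 73.9 (20.2 to 615) in the Nrg1/Irx1/Tbx1 cells and 17.1 (10.7 to 29.2) in the other Tbx1-positive cells. At E9.5 the ratio in the latter was 10.1 (6.80 to 15.7). The difference between these 2 groups of cells was not tested. In all cells outside the gate it stood at 44.9 and 10.5 CPM, a ratio of 4.25 (4.00 to 4.53). Whether the effect of genotype differed between the Nrg1/Irx1/Tbx1 cells and the other cells of the same samples was tested as an interaction. Neither stage nor run was set against cell group in this fit. Bar3, of E8.5 and run 2, thus had weight in it, and differences by stage can enter the interaction. EdgeR's quasi-likelihood test called 14 of 16886 genes (0.0829%), 13 with a higher effect in the gate (0.077%), the red cell factor Klf1 among them, and Wls as the 1 with a lower effect (0.00592%). The count was 0 without called doublets, where 774 genes were at an unadjusted p under 0.05 in edgeR, 3 with DESeq2, and 5 (without Bar28), 7 (without Bar27) to 44 (without Bar29) when each sample was left out. For Wls the interaction was -4.52 on the log2 scale over 8 samples (adjusted p = 0.0282) and -4.23 over 14 samples (adjusted p = 0.000531). The call was lost without called doublets (-4.45, edgeR adjusted p = 0.452) and with DESeq2 (-4.20, adjusted p = 0.480), at nearly the same size. It was also lost without Bar21 (edgeR adjusted p = 0.125), Bar27 (0.378) or Bar28 (0.158), each of which leaves 2 mutants. Fitted fold changes of a gene at 0 to 2 UMIs depend on the prior count and bound nothing.

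**Figure D3:**
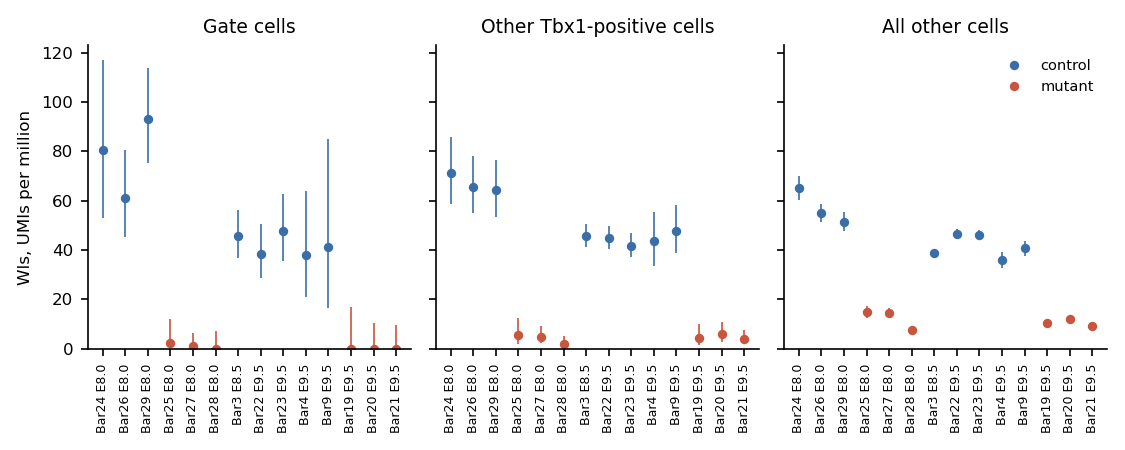
Wls CPM in the 14 barcode samples with at least 10 Nrg1/Irx1/Tbx1 cells, in Nrg1/Irx1/Tbx1 cells, other Tbx1-positive cells and all other cells, with exact Poisson 95% intervals. The control samples plotted lie above the mutant samples plotted in each cell group, and the mutant Nrg1/Irx1/Tbx1 cells together hold 2 Wls UMIs.

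Across all stages few genes were called by genotype, which does not show that few differed. In the 8 samples with at least 20 cells (5 control, 3 mutant), edgeR's quasi-likelihood test with stage and run as terms called 10 of 10136 genes (0.0987%), 8 higher (0.0789%) and 2 lower (0.0197%) in mutants, with 1082 at an unadjusted p under 0.05. Bar3 was the only sample of its stage and had no weight on the genotype term. In the 14 samples with at least 10 cells it called 1 of 8687 (0.0115%), which was Wls (log2 fold change -6.24). The globin genes Hba-x, Hba-a1 and Hbb-bh1 were among the 8 higher genes, at 2.39 (edgeR adjusted p = 0.0311), 2.24 (0.0311) and 2.00 (0.0458).

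These globin values turned on single cells. Bar21 held 1 cell with 21.2% globin UMIs and Bar27 1 cell with 5.83%. The summed globin level of Bar21 was 19237 CPM with that cell and 1864 CPM without it, and that of Bar27 was 4908 CPM and 1555 CPM. The other samples of at least 20 cells lay between 1156 and 1727 CPM. The other called genes that were named by rule were Mgst3, a membrane glutathione transferase (2.02), and Malat1, a nuclear long noncoding RNA (0.74). Sex also ran with genotype in these 8 samples. By Y-linked and Xist counts the 3 mutant samples were male, with a male share of sexed cells of 0.969 or more, and the controls female, apart from Bar29 with a male share of 0.531. Sex and genotype cannot be told apart there, whereas among the 14 samples the E9.5 mutant Bar20 was female.

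A larger set of genes was called at E9.5. With at least 20 cells per sample there were 2 controls and 1 mutant, and edgeR called 690 of 9929 genes (6.95%), a comparison with no replicate of the mutant. With at least 10 cells there were 4 controls (Bar22, Bar23, Bar4, Bar9) and 3 mutants (Bar19, Bar20, Bar21). With run as a term, edgeR's quasi-likelihood test called 70 of 7346 genes (0.953%), 59 higher (0.803%) and 11 lower (0.15%) in mutants. The count was 11 without Bar19, Bar22 or Bar23, 31 without Bar21 and 520 without Bar20. All 3 mutants were of run 1, so Bar4 and Bar9, the only samples of runs 2 and 3, had no weight in this fold change, which compares Bar22 and Bar23 with the mutants. Run 1 alone gave 64 calls. Bar22 and Bar23 were female, Bar19 and Bar21 male and Bar20 female. With the male share as a covariate the genotype term thus rests almost wholly on Bar20, without a mutant replicate.

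Genes of the response to low oxygen were 14 of the 59 called higher. Their list of 18 genes holds glucose transporters, glycolytic enzymes and other targets of the hypoxia-inducible factors. It was chosen with earlier results of these data known and is not independent evidence of its direction. Of the 17 members tested, 14 were called higher, with a median log2 fold change of 2.29, beside 0.803% called higher and a median of 0.01 over all genes tested. All 17 had a positive fold change. Leaving out samples in turn, edgeR called 4 members higher without Bar19, 5 without Bar22 or Bar23, 9 (of 16 tested) without Bar21 and 17 without Bar20. DESeq2 called 10. With the male share of the cells as a covariate, where the mutant side rests on Bar20, the median log2 fold change was 1.82. Every member tested had a positive fold change in each of these fits.

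Slc2a3, a glucose transporter, stood at 11.5 (Bar22), 19.3 (Bar23), 5.45 (Bar4) and 0 CPM (Bar9) in controls and at 201 (Bar19), 68.3 (Bar20) and 329 CPM (Bar21) in mutants. Every mutant lay above every control, with Bar20 the lowest of the mutants. The fold change was 3.76 on the log2 scale (SE 0.536, edgeR adjusted p = 0.00598). Slc2a1, the other main glucose transporter of the embryo, stood at 89.0, 50.4, 133 and 47.2 CPM in the same controls and 324, 179 and 350 CPM in the mutants. Again the groups did not overlap and Bar20 was lowest among the mutants (2.05, SE 0.305, adjusted p = 0.00803 in edgeR).

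Ndufa4l2, a mitochondrial protein that lowers respiration, stood between 10.7 and 16.5 CPM in the 4 controls and at 224, 62.6 and 166 CPM in the mutants (3.45, edgeR adjusted p = 0.00349). Ankrd37, a small ankyrin repeat protein, stood between 10.7 and 13.6 CPM in controls and at 110, 62.6 and 114 CPM in mutants (3.08, edgeR adjusted p = 0.00117). The groups were apart in both genes. Other called members were the stress genes Ier3 (3.19), Ddit4 (2.97) and Bnip3 (2.44), the circadian repressor Bhlhe40 (2.88), the oxidoreductase Ero1l (2.26), the collagen prolyl hydroxylase P4ha1 (1.77), and the glycolytic genes Pdk1 (1.75), Hk2 (1.58), Pfkl (0.85) and Ldha (0.51). Adm, the vasoactive peptide adrenomedullin, had the largest fold change of the list but was not called, at 4.57 (edgeR adjusted p = 0.106). Vegfa, the vessel growth factor, was not called either, at 1.99 (edgeR adjusted p = 0.0928), nor was Ndrg1 at 2.29 (0.0989).

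The same list was higher in the cells outside the gate. There edgeR called 17 of the 18 genes higher, with a median log2 fold change of 2.12, in a comparison that called 6.77% of 18600 genes, 3.77% of them higher. The list was thus higher in both groups of cells. The summed UMIs of the list per 10000 had a median over cells of 28.1 (Bar22), 30.4 (Bar23), 49.0 (Bar4) and 17.8 (Bar9) in controls and 59.4 (Bar19), 52.1 (Bar20) and 66.5 (Bar21) in mutants. Each mutant median lay above each control median, with Bar4 of run 2 the nearest. At E8.0 the medians overlapped, from 34.2 to 45.4 in controls and 31.2 to 49.3 in mutants.

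The mitochondrial transcripts mt-Nd1, mt-Nd4 and mt-Cytb were lower in mutants, at -0.82 (edgeR adjusted p = 0.0342), -0.76 (0.0194) and -0.74 (0.0116). None of the 3 was called by edgeR without Bar19, Bar22 or Bar23 or with the male share as a covariate. Without Bar19 the fold changes were -0.62 to -0.65 (edgeR adjusted p from 0.0645 to 0.124). They were -0.69 to -0.83 without Bar22 or Bar23, where the control has no replicate with weight. With the male share, where the mutant side rests on Bar20, they were -0.47 to -0.57. The transcript mt-Nd1 was not called without Bar21 (-0.78, edgeR adjusted p = 0.0968). The median UMIs of the cells were 20825 and 19872 in Bar22 and Bar23 and 20121, 21668 and 15297 in the mutants, and the groups overlapped. The part of the mitochondrial differences in the other calls was not tested.

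The bases before the transcription start are shown for the 4 called members of the list with the largest fold changes among those for which the RefSeq table (GRCm38.p6) held a promoter window, and for Bmp4 and Wls, which are described beside them. Windows were found for 13 of the 18 listed genes. Each is the 250 bases before the start, 5′ to 3′ on the gene's strand, at chr17:35821463-35821712 (plus strand) for Ier3, chr8:45999851-46000100 (minus) for Ankrd37, chr10:59951771-59952020 (minus) for Ddit4, chr7:138909507-138909756 (minus) for Bnip3, chr14:46390670-46390919 (minus) for Bmp4 and chr3:159839400-159839649 (plus) for Wls. Capitals mark ACGTG and GCGTG on either strand, the core letters of the motif that hypoxia-inducible factors are known to bind, and CACGTG counts on both strands.
Ier3: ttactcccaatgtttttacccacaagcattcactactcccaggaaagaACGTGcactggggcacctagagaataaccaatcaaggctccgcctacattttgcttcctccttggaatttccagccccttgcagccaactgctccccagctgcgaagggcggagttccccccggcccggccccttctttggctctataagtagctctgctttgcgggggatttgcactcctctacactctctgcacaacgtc
Ankrd37: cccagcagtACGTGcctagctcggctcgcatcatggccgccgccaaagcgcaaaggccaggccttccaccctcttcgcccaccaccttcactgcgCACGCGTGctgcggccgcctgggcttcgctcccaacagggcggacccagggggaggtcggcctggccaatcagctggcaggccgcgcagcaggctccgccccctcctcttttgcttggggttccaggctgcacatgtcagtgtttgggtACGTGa
Ddit4: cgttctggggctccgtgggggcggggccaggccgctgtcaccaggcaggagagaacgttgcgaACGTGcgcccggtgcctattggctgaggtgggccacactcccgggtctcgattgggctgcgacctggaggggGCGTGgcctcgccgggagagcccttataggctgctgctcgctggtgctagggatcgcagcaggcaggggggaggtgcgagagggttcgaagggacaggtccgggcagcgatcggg
Bnip3: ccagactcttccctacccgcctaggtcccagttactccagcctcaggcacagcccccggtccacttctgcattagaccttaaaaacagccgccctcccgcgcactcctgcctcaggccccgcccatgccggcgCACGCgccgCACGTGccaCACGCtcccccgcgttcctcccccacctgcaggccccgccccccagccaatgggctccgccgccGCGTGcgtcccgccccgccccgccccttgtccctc
Bmp4: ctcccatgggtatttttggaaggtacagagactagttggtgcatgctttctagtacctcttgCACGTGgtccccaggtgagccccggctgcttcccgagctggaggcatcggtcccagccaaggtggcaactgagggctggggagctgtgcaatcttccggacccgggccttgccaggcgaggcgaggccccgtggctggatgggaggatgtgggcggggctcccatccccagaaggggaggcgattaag
Wls: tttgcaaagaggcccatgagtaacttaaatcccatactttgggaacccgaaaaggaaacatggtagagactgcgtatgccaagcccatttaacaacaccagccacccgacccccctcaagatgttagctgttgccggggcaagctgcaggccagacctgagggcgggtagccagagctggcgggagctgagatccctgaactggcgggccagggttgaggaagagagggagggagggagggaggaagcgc

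Of the 13 windows of the list, 12 (92.3%) held at least 1 match and 8 (61.5%) at least 2. Of all 27025 windows of the same length, 38.6% held at least 1 and 16.8% at least 2. The list was made of targets of these factors, so its excess follows from that choice and is no result about these cells. The windows were not matched for base composition. The windows shown held 1 match in Ier3, 4 in Ankrd37, 2 in Ddit4, 5 in Bnip3 and 2 in Bmp4. The Wls window held none, which says only that these letters are not in it. A match describes the letters and shows no binding, and these data hold no binding measurement.

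Among genes of heart and pharyngeal development, Mef2c, Fgf8 and Bmp4 were called higher at E9.5. Mef2c, a MADS-box factor of muscle and anterior second heart field, stood at 98.9, 104, 89.9 and 124 CPM in Bar22, Bar23, Bar4 and Bar9 and at 302, 168 and 298 CPM in Bar19, Bar20 and Bar21. The groups did not overlap (1.37, SE 0.245, edgeR adjusted p = 0.0227). Bmp4, a ligand of the bone morphogenetic protein pathway, stood at 16.9, 18.3, 0 and 11.8 CPM in the controls and at 54.8, 45.5 and 72.6 CPM in the mutants. These groups did not overlap either (1.76, SE 0.322, edgeR adjusted p = 0.0239).

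Fgf8 stood at 39.1, 50.4, 174 and 88.4 CPM in the controls and at 137, 99.6 and 189 CPM in the mutants. The control Bar4 lay within the range of the mutants, and the call (1.73, edgeR adjusted p = 0.0138) rests on the 2 controls of run 1. Of the 10 anterior second heart field genes tested, Fgf8 and Mef2c were the 2 called, with a median log2 fold change over the list of 0.94, beside 0.803% called higher and a median of 0.01 over all genes tested. Isl1 was at 0.96 (edgeR adjusted p = 0.127) and Fgf10 at 1.10 (0.202). Krt18, a keratin of simple epithelia, stood between 24.5 and 35.4 CPM in controls and at 123, 62.6 and 93.4 CPM in mutants, without overlap (1.75, edgeR adjusted p = 0.0161).

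Igfbp2, a binding protein of insulin-like growth factors, stood at 29.9, 39.4, 68.1 and 53.0 CPM in controls and at 242, 145 and 293 CPM in mutants, without overlap (2.75, SE 0.302, edgeR adjusted p = 0.00117). Pfkp, a phosphofructokinase (3.34), Mt1, a metallothionein (3.01), Cox4i2, a cytochrome oxidase subunit used at low oxygen (2.99), and Pmp22, a myelin and junction protein (2.17), were the other genes among the 12 largest increases. Of the genes that were lower, Xaf1, a proapoptotic interferon-induced gene, fell by 1.84 on the log2 scale, though the controls Bar4 at 57.2 CPM and Bar9 at 47.2 CPM were below all mutants (83.0 to 128 CPM). Col2a1, the collagen of cartilage, was lower at -1.17 in the fit, again with overlap, since Bar4 was at 32.7 CPM and the mutants at 54.8, 54.1 and 77.8 CPM.

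Among the genes high in these cells that the rule did not use, Irx2, at a log2 fold change of 0.81 (edgeR adjusted p = 0.231), and Prdm1, at 0.93 (0.184), did not pass the test, and Six2 was at -0.15 (0.869). Among genes that canonical Wnt signals induce, Axin2 was at 0.15 (edgeR adjusted p = 0.927), Lef1 at -0.63 (0.580) and Ccnd1 at -0.27 (0.725). The 7 Wnt target genes tested had a median log2 fold change of -0.27. Their standard errors were 0.499 for Axin2 and 0.456 for Lef1. Changes several times that size could go uncalled, as Vegfa did at 1.99 with a standard error of 0.478 (edgeR adjusted p = 0.0928).

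Several of these calls were lost when 1 sample was left out. Without Bar22 or Bar23 the control has no replicate with weight, and without Bar19 or Bar21 the mutants are 1 fewer. Leaving out Bar19, Bar22, Bar23 or Bar21 in turn, edgeR called Ankrd37, Igfbp2 and Xaf1 each time. Slc2a3 was lost without Bar19 (adjusted p = 0.0903 in edgeR) or Bar22 (0.0620), Slc2a1 without Bar19 (0.102) or Bar23 (0.130), Ndufa4l2 without Bar19 (0.0512), and Fgf8 and Col2a1 without Bar19, Bar22 or Bar23. Bmp4, Mef2c and Krt18 were lost without any 1 of these 4 samples, with edgeR adjusted p from 0.0631 (Krt18 without Bar21) to 0.342 (Bmp4 without Bar22). With the male share as a covariate the genotype term rests on Bar20, the only female mutant, against Bar22 and Bar23. Slc2a3 was then at 2.20 and Mef2c at 0.76, without a mutant replicate.

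**Figure D4:**
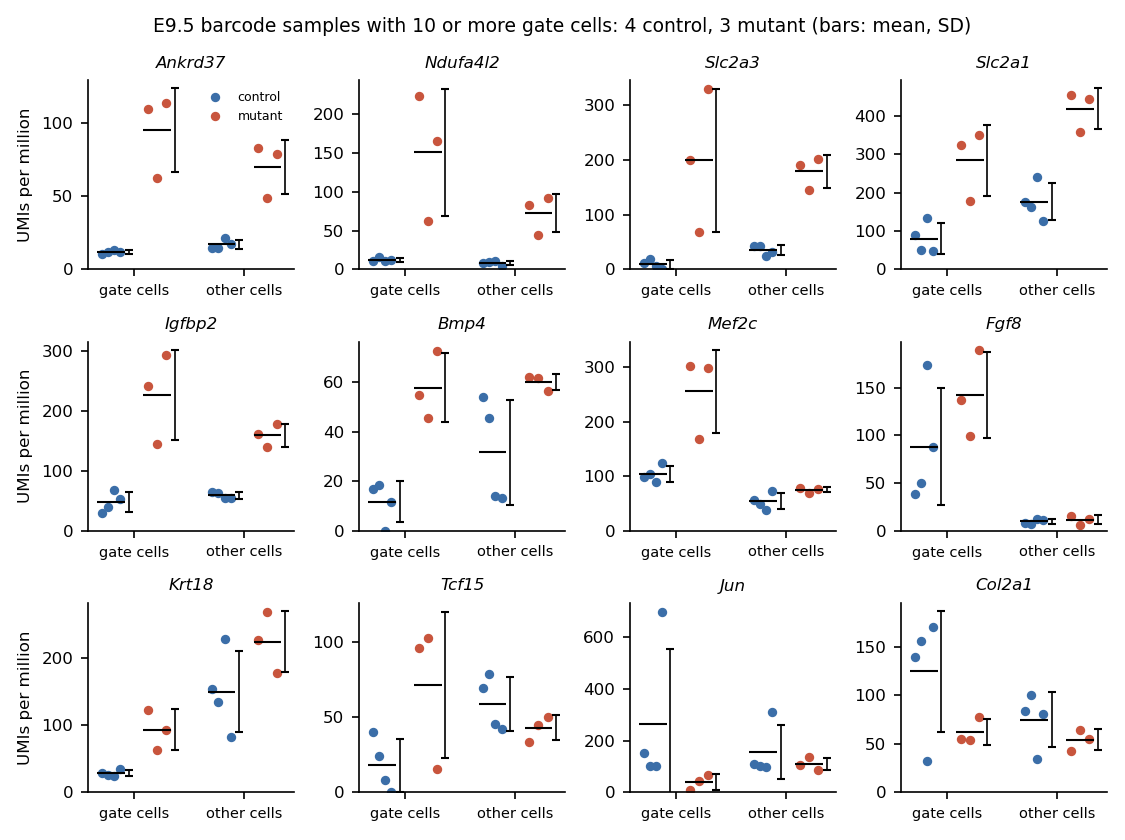
CPM in Nrg1/Irx1/Tbx1 cells (gate cells) and in the other cells of the E9.5 samples with at least 10 of the former, 4 controls and 3 mutants, 1 point per barcode sample with the mean and SD beside it. In the gate cells Slc2a3, Slc2a1, Igfbp2, Mef2c and Bmp4 show no overlap between genotypes, and Fgf8 does.

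Whether the E9.5 genotype effect differed between the Nrg1/Irx1/Tbx1 cells and the other cells was tested as an interaction, with the barcode sample as a block over the same 7 samples. Run was not set against cell group in this fit. Bar4 of run 2 and Bar9 of run 3 thus had weight among the controls, although all mutants were of run 1. Run and genotype cannot be fully told apart in these interactions. EdgeR called 51 of 16728 genes (0.305%), 35 with a higher (0.209%) and 16 with a lower effect (0.0956%) in the Nrg1/Irx1/Tbx1 cells. Slc2a3 was called, at 1.61 (adjusted p = 8.44e-05 in edgeR), and its mean in the other cells was 35.2 CPM in controls and 180 CPM in mutants, against 9.05 and 200 CPM in the gate. The remaining members of the low-oxygen list were not called. Bmp4 was called at 1.38 (adjusted p = 0.0200), with a control mean of 31.7 CPM in the other cells against 11.7 CPM in the gate, where the mutant mean was 57.7 CPM. In both genes the control mean was lower in the Nrg1/Irx1/Tbx1 cells than in the other cells. Without called doublets Bmp4 was at 1.22 and not called (edgeR adjusted p = 0.145).

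Other genes with a higher effect were Krt18 (1.11), Nrp2, a receptor of semaphorins and vessel growth factors (1.21), Pmp22 (1.71) and Tcf15, a helix-loop-helix factor of paraxial mesoderm (1.89). Tcf15 stood at 39.9, 23.8, 8.17 and 0 CPM in controls and at 95.9, 102 and 15.6 CPM in mutants, so Bar21 lay within the controls. With a lower effect stood Sfrp1, a secreted antagonist of Wnt ligands (-1.17), and the immediate early genes Jun (-1.70) and Egr1 (-1.93). Jun stood at 695 CPM in Bar9, the shallow control of run 3, and at 153, 101 and 101 CPM in the other controls, against 9.14, 45.5 and 67.4 CPM in the mutants. The 51 calls also held red cell genes such as Klf1 and Gmpr, and the part of the globin-rich cell of Bar21 in these was not tested. Without called doublets 33 genes were called.

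At E8.0 few genes were called by genotype. Among 3 controls and 3 mutants edgeR's quasi-likelihood test called 5 of 7184 genes (0.0696%), with 293 at an unadjusted p under 0.05. Wls was lower at -5.97, Tmed5, a cargo receptor of the secretory pathway that is known to act on Wnt export, at -1.14 (adjusted p = 0.0379) and Rpl34 at -1.09 (6.26e-05), while the 2 others were Xist and a pseudogene. The 3 mutants were male, with a male share of 0.983 to 0.991. The controls were female (Bar24 0.0234, Bar26 0.0216) or mixed (Bar29 0.531), so sex and genotype cannot be told apart in these calls. Slc2a3 was at 0.35 (edgeR adjusted p = 0.999), Slc2a1 at -0.19 (0.999) and Mef2c at 0.62 (0.999).

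Over 13 samples the effect of genotype at E9.5 was then tested against that at E8.0. EdgeR called 6 of 8564 genes (0.0701%), all with a higher effect at E9.5. Bar4 and Bar9, the only samples of runs 2 and 3 in this fit, had no weight in it, and run 1 alone, with 11 samples, gave the same 6 genes. They were Bmp4 (3.17, adjusted p = 0.0370), Igfbp2 (2.68, 0.0157), Slc2a1 (2.24, 0.0157), Col18a1, a basement membrane collagen (1.77, 0.0200), Hk2 (1.41, 0.0370) and Tmem45a, which lies under the 20 CPM needed to be named by rule. In Hk2 the E9.5 mutants stood at 384, 253 and 363 CPM, within or near the range of the 6 E8.0 samples of both genotypes (250 to 370 CPM), and the E9.5 controls at 113 to 136 CPM. In Slc2a1 the E9.5 mutants stood at 324, 179 and 350 CPM, the 6 E8.0 samples at 184 to 289 CPM and the E9.5 controls at 47.2 to 133 CPM. In Dlk1 the E9.5 mutants stood at 378 to 503 CPM and all E8.0 samples between 10.7 and 27.4 CPM. In Tcf15, by contrast, the E9.5 mutants Bar19 and Bar20 lay just under the lowest E8.0 sample, as given below. Dlk1 and Tcf15 were not among the 6 called genes. Whether the mutants were at an earlier stage was not tested.

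Stage was compared within run 1, between 4 samples of E8.0 (Bar26, Bar29, Bar27, Bar28) and 3 of E9.5 (Bar22, Bar23, Bar21), with genotype as a term. EdgeR's quasi-likelihood test called 311 of 9074 genes (3.43%), 188 higher (2.07%) and 123 lower (1.36%) at E9.5. Bar3, of E8.5 and run 2, did not enter the test, and its values are given beside it. It was the only E8.5 sample of at least 10 cells, and Bar4, of E9.5, was the only other such sample of run 2.

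Dlk1, a membrane protein related to Notch ligands that marks immature mesenchyme, stood at 27.4, 27.2, 25.9 and 15.7 CPM at E8.0, at 103 CPM in Bar3 and at 178, 331 and 503 CPM at E9.5. The stages did not overlap and Bar3 lay between them (3.77, SE 0.286, edgeR adjusted p = 8.89e-06). Cxcl12, a chemokine that guides migrating cells, stood at 18.7, 7.76, 18.0 and 27.4 CPM, then 137 CPM in Bar3, then 217, 135 and 215 CPM (3.59, edgeR adjusted p = 8.06e-06). Col3a1, a fibrillar collagen, stood at 13.7, 16.5, 14.7 and 9.79 CPM, then 57.7 CPM, then 180, 115 and 138 CPM (3.34, edgeR adjusted p = 7.31e-06). In Cxcl12 the E8.5 sample already lay within the E9.5 range, in Col3a1 between the stages.

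Some matrix, Hox and retinoid genes were among those that rose. Over all genes tested by stage, 2.07% were called higher and 1.36% lower. Of the 14 extracellular matrix genes tested, 4 were called higher (Col1a1, Col1a2, Col3a1, Col26a1) and 2 lower (Col4a1, Hapln1), with a median log2 fold change of 0.38. Hoxb4 (3.10, edgeR adjusted p = 0.00110) and Hoxa2 (1.37, 0.0206) were the 2 called of the 4 Hox genes tested. The retinoic acid binding proteins Crabp2 (2.14) and Crabp1 (1.12) rose, while Aldh1a2, the enzyme that makes retinoic acid in mesoderm, fell by 1.48 (edgeR adjusted p = 0.0290). Those 3 were the calls among the 10 retinoic acid pathway genes tested.

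Of the 11 anterior second heart field genes tested, Eya1 (1.61), Six2 (0.81) and Sema3c, a guidance ligand of the outflow tract (2.29), were called higher. Isl1 stood at -0.28 (edgeR adjusted p = 0.690), Fgf8 at -0.35 (0.739) and Mef2c at 0.48 (0.462). Of 16 Tbx1 network genes tested, Eya1 and Wnt5a, a noncanonical Wnt ligand (0.93), were higher and Foxc2, a forkhead factor of paraxial and pharyngeal mesoderm, was lower (-0.88). Six2 (0.48, edgeR adjusted p = 0.226), Foxc2 (-0.73, 0.0511) and the cyclin gene Ccnd1 (-0.56, 0.0581) were not called in the 13 samples with at least 10 cells, where edgeR called 460 of 6515 genes (7.06%). In the Iroquois family Irx2 alone of the 4 tested was called, at 0.93 (edgeR adjusted p = 0.0365). Tcf21, a factor of head muscle and epicardium, rose by 1.39.

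Tcf15, Ifitm1 and other genes named by the rule fell. Tcf15 stood at 123, 205, 103 and 118 CPM at E8.0, at 11.6 CPM in Bar3 and at 39.9, 23.8 and 15.6 CPM at E9.5, without overlap (-2.41, SE 0.251, edgeR adjusted p = 0.000208). Ifitm1, an interferon-induced membrane protein of the primitive streak and early mesoderm, stood at 424, 666, 360 and 517 CPM, then 14.7 CPM, then 33.7, 22.0 and 49.3 CPM (-3.96, edgeR adjusted p = 7.31e-06). In both genes the E8.5 sample was below the 3 E9.5 samples of at least 20 cells. Of those with 10 to 19 cells, Bar4 (8.17 CPM) and Bar9 (0) lay below it in Tcf15, and Bar9 (11.8 CPM) and Bar19 (9.14 CPM) in Ifitm1. In Tcf15 the mutants Bar19 (95.9 CPM) and Bar20 (102 CPM) of E9.5 lay just under the lowest E8.0 sample (103 CPM). Igfbpl1 (-3.77), the Notch ligand Jag1 (-1.96), the Wnt target Sp5 (-2.89) and the endothelial factor Etv2 (-3.39) were also lower at E9.5. Sp5 and Ccnd1 (-0.92) were the 2 called of 9 Wnt targets tested.

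The change with stage was then set against that of the other cells of the same 7 samples. EdgeR called 191 of 16689 interactions (1.14%), 88 with a higher (0.527%) and 103 with a lower change (0.617%) in the Nrg1/Irx1/Tbx1 cells. Dlk1 was among the largest, at 2.43 (adjusted p = 8.48e-11 in edgeR), as was Nrp1, a receptor of semaphorins and vessel growth factors, at 2.43 (4.40e-10). Mef2c (1.25), Fgf8 (1.17), Wnt5a (1.09), Crabp1 (1.13), Tcf21 (1.06) and Hoxb1 (0.98) also changed more upward than in the other cells. Mef2c and Fgf8 did not pass the test of stage within the Nrg1/Irx1/Tbx1 cells. In the other cells of these samples Fgf8 stood at 23.6 to 38.2 CPM at E8.0 and at 7.69 to 12.5 CPM at E9.5, without overlap, and Mef2c at 73.0 to 166 CPM and 48.6 to 77.4 CPM.

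Lower changes were found in Tcf15 (-2.09), Pax3, a factor of the paraxial mesoderm and neural crest (-2.67), Twist1 (-0.92) and Ebf1 (-0.72). Of the 18 low-oxygen genes, Ddit4, Slc2a1, Pdk1, Bnip3 and Hk2 had a lower change. Of the 15 Hox genes, Hoxb1, Hoxb4, Hoxb5 and Hoxd1 had a higher change, with a median of 1.01 over the list.

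**Figure D5:**
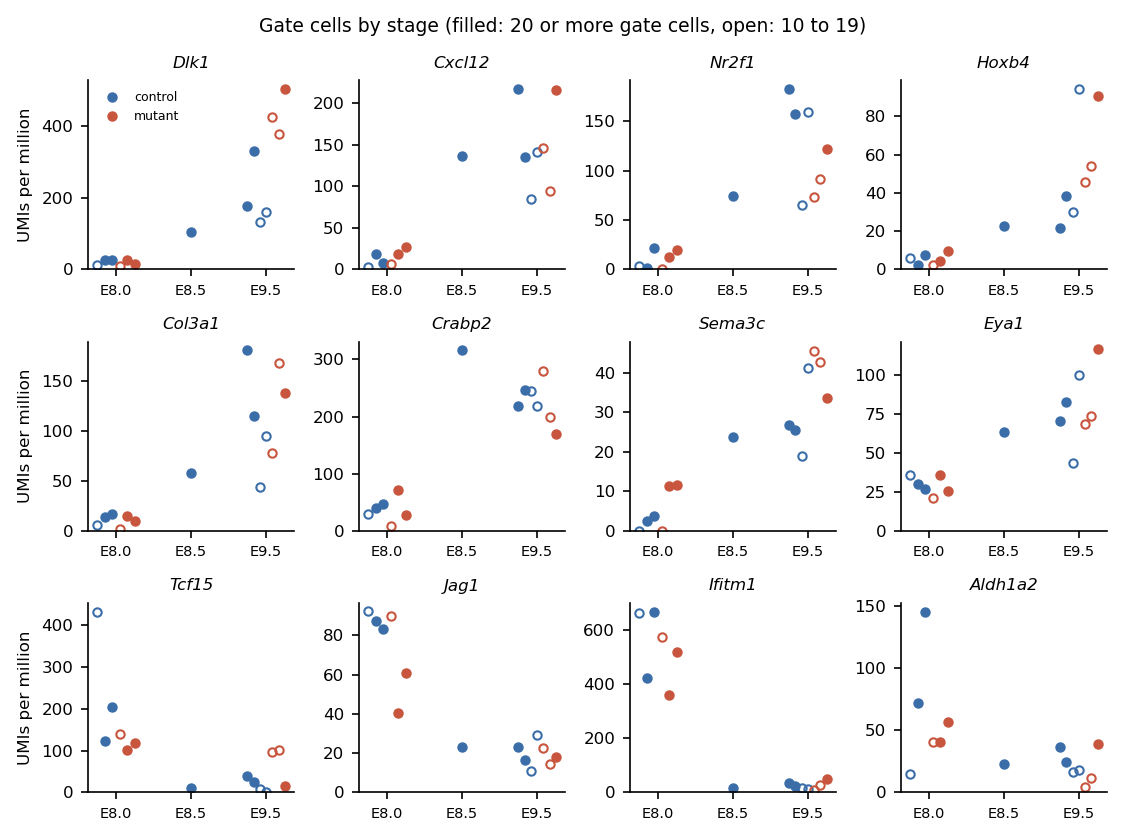
CPM in Nrg1/Irx1/Tbx1 cells (gate cells) by stage, 1 point per barcode sample, coloured by genotype and filled where the sample held at least 20 of them (open: 10 to 19). Dlk1, Cxcl12 and Col3a1 are higher and Tcf15 and Ifitm1 lower in each E9.5 sample than in each E8.0 sample.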

How the data were processed

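Single-cell RNA-seq of sorted Mesp1-lineage cells was analysed from the matrix of raw UMI counts deposited by the authors (51923 genes by 14777 cells, not normalized). Run, barcode, stage and genotype of each cell came from the deposited per-cell table. Mapping used kallisto and bustools with the 10x setting, per the labels' descriptions. The submitters' processing notes also name Cell Ranger, bustools 0.46.1 and GRCm38. The filters on cells and the use of strand are not given in the sources used here, so reads of overlapping genes cannot be told apart.

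The members and gene lists were chosen with earlier results of these data known. Counts were summed over the chosen cells of each barcode sample and tested with edgeR 4.0.16 (R 4.3.3, filterByExpr, TMM, quasi-likelihood F test, Benjamini-Hochberg at 0.05, two-sided). The main minimum was 20 cells per sample. The fits with 10, the interactions by stage and at E9.5, and the fit at E8.0 were added after seeing the data. Genotype fits had stage and run as terms. Interactions had the sample as a block. Shares were tested by exact permutation within stage and run (scipy 1.17.1, Python 3.11.15). Doublets were called with Scrublet in scanpy 1.11.5 and kept. DESeq2 1.42.0 was an alternative. The scripts were tested on simulated data.

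Genes were named by rule: for each test the 12 largest called changes in each direction at 20 CPM or more, without gate genes, sex-linked genes and pseudogenes, for levels the 25 largest ratios in genes found in at least 25% of the cells, plus list genes and Wls. Results for some genes are not reported here.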

Additional observations from a re-analysis of the deposited data

Results flagged for a closer look

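Of 43 groups of 4 to 8 samples examined for a sample far from the others by Dixon's criterion, 4 held one, where chance gives about 1 in 20. Jun stood at 695 CPM in Bar9 among the E9.5 controls. Dlk1 stood at 15.7 CPM in Bar28 among the 4 E8.0 samples with at least 20 cells, but Bar24 (11.9 CPM) and Bar25 (10.7 CPM), with 10 to 19 cells, lay lower. Prdm1 stood at 90.8 CPM in Bar21 and Aplnr at 215 CPM in Bar28 among the 8 samples with at least 20 cells.

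Differences between groups of cells or between stages, tested as interactions in edgeR, were called in 14 genes for the genotype effect in Nrg1/Irx1/Tbx1 cells against other cells (0.0829% of those tested), 51 genes for that effect at E9.5, 191 genes for the stage effect and 6 genes for the genotype effect at E9.5 against E8.0. For the genotype effect Wls was at -4.52 over all stages and -9.69 at E9.5. The mutant Nrg1/Irx1/Tbx1 cells held 2 Wls UMIs over all samples and 0 at E9.5, so these sizes depend on the prior count and bound nothing. The call over all stages was lost without called doublets, with DESeq2, and without Bar21, Bar27 or Bar28. The 13 other genes called over all stages were higher in effect and held the red cell factor Klf1. At E9.5 Bmp4 was at 1.38, Slc2a3 at 1.61, Tcf15 at 1.89, Krt18 at 1.11, Nrp2 at 1.21, Sfrp1 at -1.17, Jun at -1.70 and Egr1 at -1.93. For the stage effect Dlk1 was at 2.43, Nrp1 at 2.43, Mef2c at 1.25, Fgf8 at 1.17, Wnt5a at 1.09, Hoxb1 at 0.98, Tcf15 at -2.09 and Twist1 at -0.92. For the genotype effect at E9.5 against E8.0 Bmp4 was at 3.17, Igfbp2 at 2.68, Slc2a1 at 2.24, Col18a1 at 1.77 and Hk2 at 1.41.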

How the results depend on the processing

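Small samples and depth limit these results: with 10 to 81 cells per sample, genes under 20 CPM carry few UMIs, and 1 library often decides a count. The difference in share changed sign with thinning (0.0286), at E9.5 alone (0.286), in run 3 alone (0.596) and at E8.0 (0.503) and E9.5 (0.0197) thinned, and ranged from -0.431 to 0.215 when each sample was left out, above 0 without Bar1 (0.166), Bar3 (0.215), Bar9 (0.0229) or Bar29 (0.0601). Of the genes of the rule in all cells, edgeR called 0, and 1 with RLE size factors.

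Genes called by genotype over all stages numbered 10, against 18 with DESeq2, 198 without a filter on low counts, 1 with at least 10 cells per sample, 5 without called doublets, 3 with the male share as a covariate (1 with at least 10 cells), 1202 without E8.0, 4 with at least 2 UMIs of each gate gene (at least 10 such cells), and 2 to 29 when each of the 8 samples was left out. With at least 10 cells the range was 1 to 8. With at least 10 cells and the male share, Hba-a1 (-0.34), Hbb-bh1 (-0.068) and Malat1 (-0.035) changed sign. At E9.5 the 690 calls of 2 controls and 1 mutant became 1148 with RLE, 59 with DESeq2, 1120 without a filter, 1143 without doublets and 70 with at least 10 cells. For the latter the counts were 64 in run 1 alone, 82 without doublets, 31 with DESeq2 and 71 with RLE. With the male share as a covariate that fit rests on Bar20 for the mutants. Leaving out a sample gave 11 (without Bar19, Bar22 or Bar23), 31 (without Bar21), 69 (without Bar4), 73 (without Bar9) and 520 (without Bar20). With the male share Tmem202 (-0.18), 9230116N13Rik (-0.50), Gmpr (-0.91), Hbb-bs (-0.11), Hba-a1 (-0.51) and Wars (0.42) changed sign, as did Hba-a1 without doublets (-0.13) and without Bar21 (-0.33) and Wars without Bar21 (0.040).

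Stage calls, 311, became 757 without a filter, 460 with at least 10 cells per sample (553 with a run term, 496 in run 1, 174 in mutants alone), and 120, 182 and 177 without Bar22, Bar23 or Bar29, within 120 to 290 when each of the 7 samples was left out. With at least 10 cells the range was 298 to 547, with 499 without Bar20. The interaction of genotype with cell group, 14 calls, became 3 with DESeq2, 92 without a filter, 5 with at least 10 cells, 0 without doublets in edgeR (774 at an unadjusted p under 0.05), 7 without Bar27, and 5 to 44 (without Bar29) when each sample was left out. At E9.5 its 51 calls became 33 without doublets, where Hbb-bs (-0.73), Hba-a1 (-0.82), Hba-x (-0.085) and Hbb-bh1 (-0.14) changed sign. The cause of these changes was not tested. Genes at least 2-fold higher numbered 59 against other cells and 30 against other Tbx1-positive cells. The minimum of 40 cells, runs 2 and 3 alone and the stricter gate at 20 cells left too few samples for a fit and were not run. Controls and mutants could not be paired because the labels give these groups no shared replicate numbers. Cell groups of the same barcode sample were set side by side in the interactions and the level ratios.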

Other observations

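Other transcription factor genes were found in part of the Nrg1/Irx1/Tbx1 cells. Gbx2, a homeobox factor, had a UMI in 32.6% of them (95% exact binomial interval 28.2% to 37.3%), against 6.07% of the other cells and 0.571% of blood cells. Meox1 was found in 46.5% of the cells at E8.0, 85.5% at E8.5 and 70.9% at E9.5, against 21.5%, 31.1% and 28.6% of the other cells. Nkx2-5, a cardiac homeobox factor, was found in 24.3%, 9.64% and 5.61% of the cells at these stages, and in 18.7%, 7.77% and 9.24% of the other cells. Fst, which encodes the activin antagonist follistatin, was found in 70.8%, 37.3% and 41.3% of the cells, against 34.4%, 30.1% and 29.1% of the others. The cells come from few samples and differ in depth between stages, so these shares are descriptions without a test.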
